A study of Homo sapiens with 4 samples.

Results

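*EMP1*, *EMP2*, *EMP3* and *PMP22* encode the epithelial membrane proteins and peripheral myelin protein 22, a small family of membrane proteins. The 4 genes were matched by symbol to 4 of the 63568 gene identifiers in RNA-Seq count files of HGC-27 cells, and all 4 passed the filter on low counts that left 21932 genes for testing. They were chosen by family and with their values in this comparison already known. Their levels and differences are therefore given as a description, without p-values. HGC-27 is an established human gastric carcinoma line, and the comparison addresses how loss of the deubiquitinating enzyme USP47 alters its transcripts. Of the 4 libraries, 2 came from cells infected with lentivirus carrying a control shRNA (scrambled) and 2 from cells infected with lentivirus carrying an shRNA against *USP47*; both groups were grown in the same serum-containing RPMI medium. The shRNAs were expressed from the pLKO.1 vector, and whether both knockdown libraries carried the same USP47 shRNA is not stated. The methods speak of triplicates while the series text speaks of biological duplicates, and the series text also names a DMSO vehicle that the labels of these 4 libraries do not mention. All values come from 1 cell line, and where separate cultures are not documented the spread between libraries may be technical.

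Proteins of this family cross the membrane several times, have short intracellular ends and are distant relatives of the claudins of tight junctions. PMP22 is a component of compact myelin made by Schwann cells, its gene dosage underlies inherited neuropathies, and it was also cloned as the growth arrest-specific gene GAS3. EMP1 is known from epithelia and squamous differentiation, EMP2 regulates integrins, focal adhesion kinase and caveolins at the cell surface, and EMP3 is best known from brain tumors and blood cells, where it associates with CD44.

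The kinship of the 4 genes is visible in their first coding piece, the coding part of the exon that holds the start codon, shown here to display what the members share. It measured 78 bases in each gene, and 29 of the 78 bases (capitals) were the same in all 4. The sequences were read from GRCh37 5′ to 3′ on the coding strand, at chr12:13364445-13364522 (+) for *EMP1*, chr16:10641397-10641474 (−) for *EMP2*, chr19:48830102-48830179 (+) for *EMP3* and chr17:15163967-15164044 (−) for *PMP22*.
EMP1: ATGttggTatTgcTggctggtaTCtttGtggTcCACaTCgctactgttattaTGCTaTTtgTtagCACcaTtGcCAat
EMP2: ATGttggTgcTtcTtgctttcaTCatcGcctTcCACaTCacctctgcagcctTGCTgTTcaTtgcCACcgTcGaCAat
EMP3: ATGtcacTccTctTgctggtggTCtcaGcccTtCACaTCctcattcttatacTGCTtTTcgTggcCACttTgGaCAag
PMP22: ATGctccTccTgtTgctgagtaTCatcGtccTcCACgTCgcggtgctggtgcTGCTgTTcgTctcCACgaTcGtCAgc

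Each canonical transcript had 5 exons, 4 of them coding, with coding pieces of 78, 97, 141 and 155 bases in *EMP1*, 78, 91, 147 and 185 in *EMP2*, 78, 103, 141 and 167 in *EMP3*, and 78, 100, 141 and 161 in *PMP22*. The third piece therefore had the same length in 3 of the 4 genes, and *EMP2* differed from them there. Identity over the aligned coding sequence ranged from 56.1% (*EMP1* with *PMP22*) to 59.7% (*EMP1* with *EMP2*). None of the 50-base stretches of the *EMP1*, *EMP3* and *PMP22* transcripts recurred in a transcript of another gene, so that reads of these members could be told apart from those of other genes at that length. In *EMP2*, 146 of 5048 such stretches (2.89%) did recur elsewhere, and reads from them may have been counted differently. The transcripts also differed in length outside the coding part, with a last exon of 5408 bases in *EMP1*, 4671 in *EMP2*, 1302 in *PMP22* and 253 in *EMP3*.

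**Figure D1:**
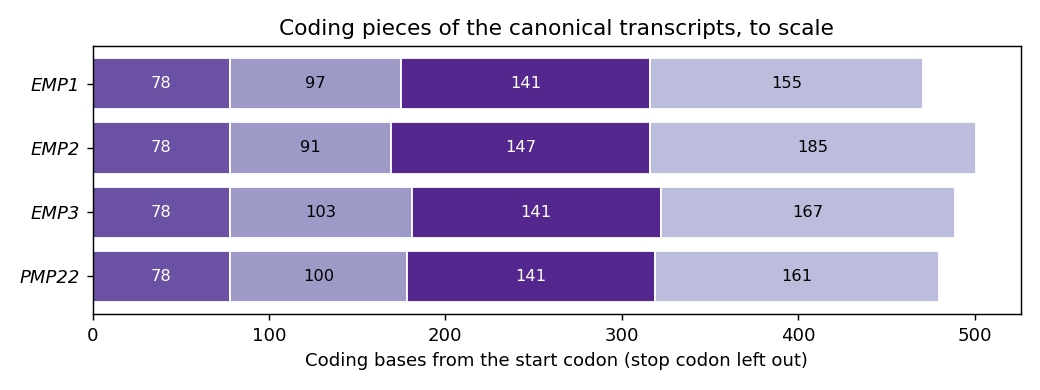
Lengths in bases of the 4 coding pieces of the canonical transcripts of EMP1, EMP2, EMP3 and PMP22, drawn to scale from start codon to the last sense codon. The first piece measured 78 bases in every gene and the whole coding sequence 471, 501, 489 and 480 bases.

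The libraries held 15649899 to 20140273 counts on genes. Across genes, the 2 control libraries correlated at r = 0.993, the 2 knockdown libraries at r = 0.987 and libraries of different groups at r = 0.972 to 0.976, and the counts of replicates differed by more than sampling noise. *USP47* (chromosome 11 of GRCh37, overlapped by *DKK3* on the other strand) had 1357 and 1297 reads in the controls against 749 and 309 in the knockdown, so that 49.3% and 29.5% of the control mean remained after normalization. Of the 21932 genes tested, 3527 (16.1%) passed an adjusted p of 0.05 in edgeR's quasi-likelihood test, 2097 of them lower (9.56%) and 1430 higher (6.52%) with USP47 shRNA. Of 11 epithelial markers 6 had too few counts to test (0 to 3 in every library: *KRT18*, *KRT19*, *TFF1*, *TFF2*, *MUC5AC* and *GKN1*). The summed level of the 11 ranged from 20 to 21.3 CPM (counts scaled to library size with TMM normalization) with control shRNA and 21.7 to 27.8 with USP47 shRNA. Most of that sum was *MUC1*, a mucin of the epithelial cell surface, at 15 ± 0.267 and 19.8 ± 3.96 CPM (SD, n = 2), so the sum does not stand for the other markers. *MUC1* and *CDH1* had log2 fold changes of 0.40 and 0.56 and did not pass the test (edgeR adjusted p = 0.121 and 0.413). *CDH1* was counted 13 and 12 times with control shRNA and 28 and 8 times with USP47 shRNA, so that its groups overlapped. *EPCAM*, counted 11 to 12 times with control shRNA and 3 times in each knockdown library, was the 1 epithelial marker that fell (adjusted p = 0.0416, edgeR). It passed the filter on low counts only through the control libraries. Its call was lost with library size alone (0.0505) and without a filter on low counts (0.0577), both in edgeR. With 1 library left out its log2 fold change was -2.07 to -1.55. The 5 fibroblast markers summed to 1269 and 1305 CPM in the control and 746 and 1037 CPM in the knockdown libraries. Most of that sum was *COL1A1*, at 930 ± 45.4 and 555 ± 172 CPM (SD, n = 2). Of the 5 markers, *COL1A1*, *COL1A2* and *PDGFRA* fell (log2 fold changes of -0.75, -1.23 and -0.63, adjusted p = 0.0309, 0.0222 and 0.0131 in edgeR). In the same test *DCN* (0.24, adjusted p = 0.269) and *LUM* (-0.17, 0.439) did not pass. Their part in the differences of the EMP and PMP22 genes was not tested. When USP47 shRNA replicate 1 was left out, the change of *COL1A2* was -0.70 on the log2 scale and that of *COL1A1* -0.45, and without replicate 2 that of *COL1A2* was -1.99. With 1 library left out the log2 fold change was -0.75 to -0.51 for *PDGFRA* and -1.10 to -0.45 for *COL1A1*. The call of *COL1A2* was lost in the DESeq2 Wald test (adjusted p = 0.183). The leukocyte marker *PTPRC* was counted 8 to 12 times and *CD68* 3 to 6 times over the 4 libraries, and the 2 endothelial markers matched (*CDH5* and *VWF*) summed to 0.118 to 0.561 CPM.

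*EMP1* was the member that differed most between the groups, at 4.08-fold lower level with USP47 shRNA. *EMP2* and *PMP22* were lower by smaller amounts, and the levels of *EMP3* overlapped between groups. On the CPM scale after TMM normalization, 3 of the 4 members had a log2 fold change below 0, against 11144 of the 21932 genes tested, and their median was -0.46, against -0.0083 over all genes tested. In the genome-wide test 1 of the 4, *EMP1*, passed the threshold, beside 16.1% of all genes, and since the members were chosen with this comparison known nothing is read from that count.

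*EMP1* (ENSG00000134531, chromosome 12 of GRCh37, 13349657 to 13372875, plus strand) overlaps no other annotated gene. Its reads numbered 238 and 268 with control shRNA and 73 and 47 after knockdown, which came to 14 and 13.7 CPM with control shRNA and 3.51 and 3.27 CPM with USP47 shRNA. Both knockdown libraries thus lay far below both controls, and the libraries of a group lay close together. The group means were 13.8 ± 0.263 CPM with control shRNA and 3.39 ± 0.166 CPM with USP47 shRNA (SD, n = 2 each). The log2 fold change was -2.02 (standard error 0.17), and the knockdown libraries retained 25.4% and 23.7% of the control mean. Of all genes tested, 0.533% had a lower log2 fold change. In bulk RNA, fewer cells that express a gene and less RNA per cell cannot be told apart.

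*EMP2* (ENSG00000213853, chromosome 16, 10622279 to 10674489, minus strand) was counted 976 and 1190 times with control shRNA and 700 and 708 times with USP47 shRNA. Its levels were 57.5 and 60.7 CPM in the control libraries and 33.7 and 49.3 CPM in the knockdown libraries. Both knockdown libraries were below both controls, but they differed from each other by more than either control from the other. The means were 59.1 ± 2.20 and 41.5 ± 11.1 CPM (SD, n = 2), and the log2 difference was -0.51 (standard error 0.17), with 57.0% and 83.5% of the control mean retained. The difference rested unevenly on the knockdown libraries, since it was -0.81 on the log2 scale without USP47 shRNA replicate 2 and -0.25 without replicate 1. A noncoding gene on each strand (ENSG00000260310 and ENSG00000256013) overlaps *EMP2*, and because the use of strand in counting is not stated, antisense reads could not be separated.

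*PMP22* (ENSG00000109099, chromosome 17, 15133090 to 15175609, minus strand) had 557 and 731 reads with control shRNA and 530 and 398 after knockdown. This gave 32.8 and 37.3 CPM with control shRNA and 25.5 and 27.7 CPM with USP47 shRNA, without overlap between the groups. The means were 35.1 ± 3.13 and 26.6 ± 1.59 CPM (SD, n = 2), a 1.32-fold lower level with USP47 shRNA and a log2 fold change of -0.40 (standard error 0.14). The 2 knockdown libraries retained similar shares of the control mean, 72.7% and 79.1%. The *PMP22* span hosts a microRNA gene and a small nucleolar RNA on its own strand, and 3 noncoding genes lie on the other strand.

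*EMP3* (ENSG00000142227, chromosome 19, 48824766 to 48833810, plus strand) was counted 651 and 853 times with control shRNA and 732 and 830 times with USP47 shRNA. The levels were 38.4 and 43.5 CPM in the control libraries and 35.2 and 57.8 CPM in the knockdown libraries, so that 1 knockdown library lay below both controls and the other above both. Means of 40.9 ± 3.60 and 46.5 ± 16.0 CPM (SD, n = 2) gave a log2 fold change of 0.18 (standard error 0.20). Its sign depended on the knockdown library used, with -0.22 without USP47 shRNA replicate 2 and 0.51 without replicate 1. *ODAD1*, on the other strand, overlaps the annotated *EMP3* span outside the canonical transcript.

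**Figure D2:**
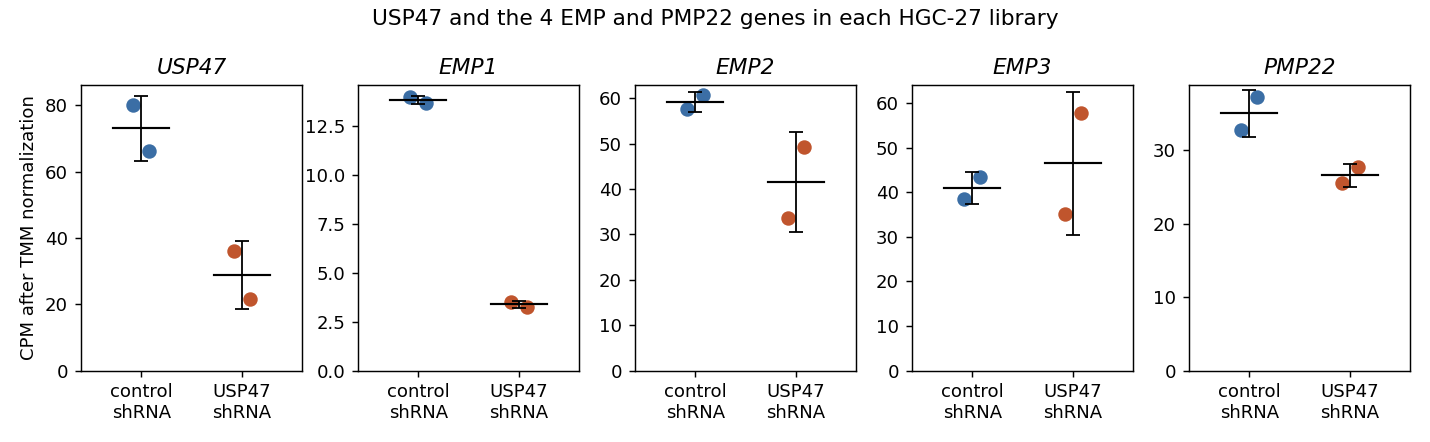
Normalized level (CPM after TMM scaling) of USP47, EMP1, EMP2, EMP3 and PMP22 in each of the 4 libraries, with a line at the group mean and bars of 1 SD (n = 2 per group). EMP1 stood at 14 and 13.7 CPM in the control and 3.51 and 3.27 CPM in the USP47 shRNA libraries, whereas the EMP3 values of the groups overlapped.

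Levels of different genes can be compared only per transcript length, for which the deposited TPM values, which divide counts by gene length before scaling each library to one total, were used. With control shRNA *EMP3* stood highest at 33.5 and 33.5 TPM, followed by *PMP22* at 16.4 and 16.4, *EMP2* at 9.61 and 8.92, and *EMP1* at 4.37 and 3.75. The order was the same with USP47 shRNA, where *EMP3* stood at 30.6 and 37.6 TPM, *PMP22* at 12.7 and 10.3, *EMP2* at 5.60 and 6.14, and *EMP1* at 1.09 and 0.760. In both groups the libraries of neighbours in this order did not overlap. The 4 members summed to 63.9 and 62.5 TPM in the control and 50 and 54.8 TPM in the knockdown libraries. Within that sum *EMP3* made up 52.5% and 53.5% with control shRNA and 61.3% and 68.6% with USP47 shRNA, while *EMP1* made up 6.84% and 6% and then 2.18% and 1.39%. The share of *EMP2* was 15.0% and 14.3% against 11.2% and 11.2%, and that of *PMP22* 25.6% and 26.2% against 25.3% and 18.8%. HGC-27 cells thus carried *EMP3* as the main transcript of the family in all 4 libraries. On the TPM scale, the log2 ratios of the group means were -2.02 for *EMP1*, -0.65 for *EMP2*, 0.03 for *EMP3* and -0.51 for *PMP22*.

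Among 55 listed relatives with the same membrane topology, 31 of them outside the claudins and 24 claudins, none had a higher control mean than *EMP3* in TPM, 1 exceeded *PMP22*, 2 exceeded *EMP2* and 7 exceeded *EMP1*. The most abundant relatives were *LHFPL6* at 24.4 ± 4.02 TPM and *CLDN15*, a claudin that forms cation pores, at 15.4 ± 1.21 TPM (SD, n = 2, control shRNA). *PERP*, a p53-regulated component of desmosomes, and *TMEM47*, a claudin-like protein of cell junctions, followed at 7.52 ± 0.951 and 6.60 ± 0.229 TPM.

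**Figure D3:**
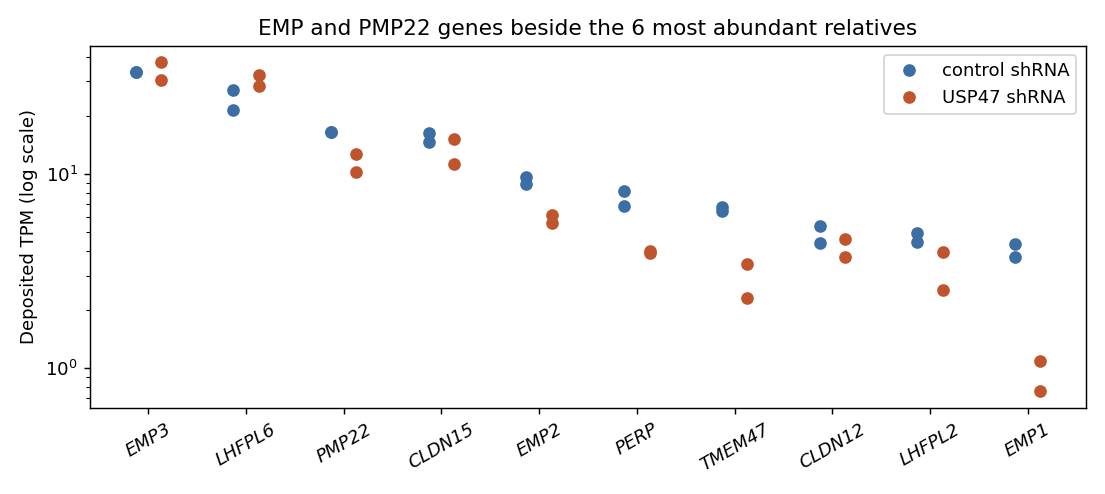
Deposited TPM (log axis) of the 4 members and their 6 most abundant relatives in the control shRNA and USP47 shRNA libraries, with 1 point per library. EMP3 lay at 33.5 TPM in both control libraries and EMP1 at 4.37 and 3.75 TPM, against 1.09 and 0.760 TPM in the knockdown libraries.

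The promoters of the members with the largest fold change and with the fold change nearest to 0 are shown for contrast, as the 250 bases before the RefSeq start (sequences from the RefSeq table of GRCh38.p14, matched exactly to GRCh37), with motif matches in capitals. The *EMP1* window lies at chr12:13349410-13349659 (+) and the *EMP3* window, directly before the start of the canonical transcript, at chr19:48828559-48828808 (+).
EMP1: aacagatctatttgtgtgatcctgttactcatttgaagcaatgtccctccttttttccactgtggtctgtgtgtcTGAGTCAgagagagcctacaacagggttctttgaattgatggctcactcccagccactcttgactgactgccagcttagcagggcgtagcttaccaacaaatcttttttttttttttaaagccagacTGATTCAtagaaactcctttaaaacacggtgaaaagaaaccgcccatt
EMP3: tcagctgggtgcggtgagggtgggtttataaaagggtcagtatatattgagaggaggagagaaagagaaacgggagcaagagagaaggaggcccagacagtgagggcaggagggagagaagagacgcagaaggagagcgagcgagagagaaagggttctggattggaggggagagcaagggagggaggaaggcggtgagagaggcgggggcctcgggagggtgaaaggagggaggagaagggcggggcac

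The *EMP1* window held 2 matches to the AP-1 motif TGANTCA (N, any base), TGAGTCA starting 175 bases and TGATTCA starting 48 bases before the start. The windows of *EMP2*, *EMP3* and *PMP22* held none. RefSeq lists 3 starts for *PMP22* and 2 for *EMP3*, and only the window before the canonical start was searched. AP-1 is the dimer of FOS and JUN proteins, and 6.57% of 35116 promoter windows of this length held the motif on either strand. The core motifs of TEAD factors (CATTCC, in 11.9% of windows), Snail (CACCTG, 17.5%) and GLI factors (GACCACCCA, 0.199%) had no match in the 4 windows on either strand. These motifs were searched with the results known, and a match or its absence says nothing on binding. The windows also differed in base composition, with 42.4% G and C in *EMP1*, 48.8% in *PMP22*, 59.2% in *EMP3* and 77.2% in *EMP2*.

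Of the 31 relatives outside the claudins, 12 had enough counts to test, 4 of these fell and none rose, at a background of 16.1% of genes called and 9.56% called lower. Their median log2 fold change was -0.54, against -0.0083 over all genes. This list and those below were chosen with earlier results of these data known. Their counts and medians are therefore a description, and nothing is read from them about a family. *TMEM47* stood at 18.8 and 20.3 CPM with control shRNA and 9.57 and 8.57 CPM with USP47 shRNA, which is a difference of -1.11 ± 0.15 on the log2 scale (standard error; edgeR adjusted p = 0.00194). *CACNG8*, a regulatory subunit of AMPA-type glutamate receptors, fell from 9.62 ± 2.07 to 4.08 ± 0.150 CPM (SD, n = 2, edgeR adjusted p = 0.00427). *PERP* fell from 23.5 ± 0.868 to 13.7 ± 2.99 CPM (log2 fold change -0.79, edgeR adjusted p = 0.0131) and *TMEM37* from 4.61 ± 0.241 to 2.68 ± 0.0514 CPM (log2 fold change -0.78, edgeR adjusted p = 0.0296). Each of the 4 genes was lower in both knockdown libraries than in both controls. The call of *TMEM37* was lost in the DESeq2 Wald test (adjusted p = 0.132). With 1 library left out the log2 fold change was -1.01 to -0.56 for *PERP* and -0.84 to -0.73 for *TMEM37*. *LHFPL6*, the most abundant relative, missed the threshold with a log2 fold change of 0.45 (edgeR adjusted p = 0.0505), as did *LHFPL2* with -0.44 (0.056).

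Claudins, which seal tight junctions between epithelial cells, were mostly at low counts. Of 24 claudins 11 could be tested, and 4 fell and none rose, again beside 9.56% of all genes called lower. *CLDN1* and *CLDN5* passed the filter on low counts only through the control group, so their fall is no support for a trend among claudins. With at least 10 counts required in every library these 2 genes dropped out, and 2 of 9 claudins tested were called lower. The median over the 11 was -0.34 on the log2 scale. *CLDN7* was counted 49 and 68 times with control shRNA and 21 and 13 times with USP47 shRNA (log2 fold change -1.72, standard error 0.27, edgeR adjusted p = 0.00362), but overlaps *ELP5* on the other strand. *CLDN9* went from 40 and 57 counts to 21 and 16 (-1.32 on the log2 scale, edgeR adjusted p = 0.0123). *CLDN1*, a widely expressed tight junction claudin, was counted 12 and 17 times and then 4 and 2 times (-2.17, edgeR adjusted p = 0.018). *CLDN5*, the claudin of endothelial barriers, had 27 and 29 and then 17 and 5 counts (-1.30, edgeR adjusted p = 0.0444). At these low counts the calls of *CLDN9*, *CLDN1* and *CLDN5* were fragile, while that of *CLDN7* held in every fit. *CLDN9* and *CLDN1* were not called without control replicate 2 (adjusted p = 0.0914 and 0.118), *CLDN9* missed the threshold in DESeq2 (0.0515), and *CLDN5* was called only when USP47 shRNA replicate 1, of the 4 libraries, was left out (0.0816 to 0.13 without each of the others), where its log2 fold change was -2.10. The claudins with the highest levels, *CLDN15* and *CLDN12*, differed by -0.11 each on the log2 scale (edgeR adjusted p = 0.583 and 0.616), and *CLDN18*, the claudin of stomach epithelium, by -0.18 (0.633).

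**Figure D4:**
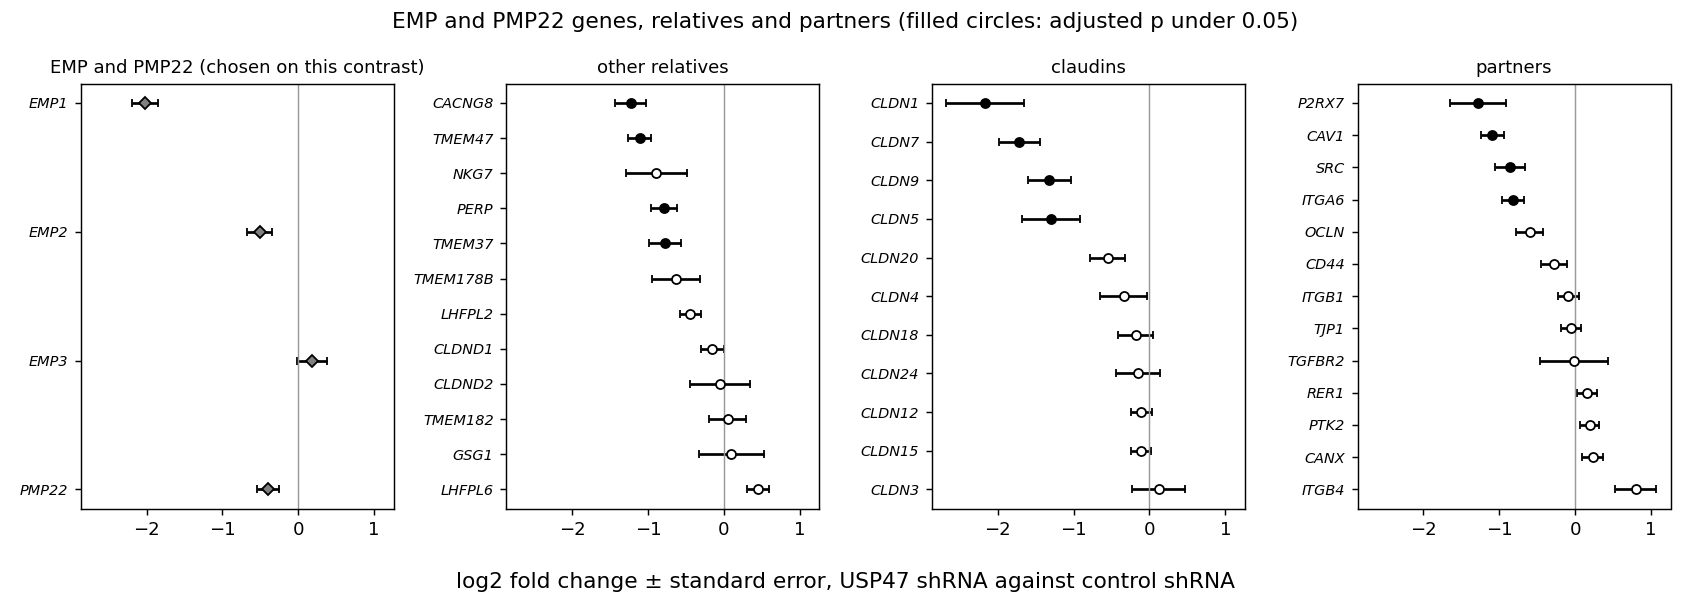
Log2 fold change (USP47 shRNA over control shRNA, CPM after TMM scaling) with bars of 1 standard error. Grey diamonds are the 4 members, shown as a description, and circles are the tested relatives, claudins and partners. Filled circles mark an edgeR adjusted p under 0.05. EMP1 lay at -2.02 and EMP3 at 0.18, and each filled circle lay below 0.

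Of 13 proteins known to bind, carry or signal with the members, all 13 were tested, 4 fell and none rose, where 9.56% of all genes were called lower, and the median log2 fold change was -0.09. *CAV1*, the caveolin whose surface level EMP2 is known to affect, was at 21.9 and 25.6 CPM with control shRNA and 10.9 and 11.4 CPM with USP47 shRNA (log2 fold change -1.09, standard error 0.15, edgeR adjusted p = 0.00195). *ITGA6*, the integrin chain of laminin receptors that associates with PMP22, fell from 17.2 ± 0.332 to 9.65 ± 1.04 CPM (SD, n = 2, edgeR adjusted p = 0.00736). The kinase gene *SRC* (7.61 to 4.24 CPM, edgeR adjusted p = 0.0176) and the ATP-gated channel gene *P2RX7* (1.62 to 0.693 CPM, 0.0388), whose product binds EMP proteins, were the others that fell. *ITGB4*, which pairs with *ITGA6*, was at 1.86 ± 0.0412 and 3.32 ± 1.02 CPM with a log2 fold change of 0.80 and did not pass the test (edgeR adjusted p = 0.0729). Partners that act on PMP22 folding and retention in the secretory pathway did not pass either, with log2 fold changes of 0.23 for *CANX* and 0.16 for *RER1* (edgeR adjusted p = 0.293 and 0.393). Nor did *ITGB1* (-0.09, edgeR adjusted p = 0.688), *PTK2*, the focal adhesion kinase (0.19, 0.316), *CD44* (-0.28, 0.271) or *OCLN*, encoding occludin (-0.60, 0.0504). Fits without 1 library gave log2 fold changes of -0.93 to -0.72 for *ITGA6*, -1.07 to -0.63 for *SRC* and -1.73 to -0.82 for *P2RX7*. The -0.82 of *P2RX7*, without USP47 shRNA replicate 1, compares with -1.28 with all libraries. With library size alone the call of *P2RX7* was lost (edgeR adjusted p = 0.0509).

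Myelin genes and regulators of Schwann cells, the cells in which PMP22 is best known, were measured at very different levels. Of 15 genes, 8 had too few counts, among them *MAG*, encoding the myelin-associated glycoprotein, and *GJB1*, encoding a gap junction protein of Schwann cells, with at most 1 count each in any library. Of the 7 tested, 2 fell and none rose (9.56% of all genes were called lower), and the median was -0.22 on the log2 scale. Both are receptors. *ERBB3*, the neuregulin receptor, fell from 12.3 ± 2.34 to 5.48 ± 2.10 CPM (SD, n = 2, edgeR adjusted p = 0.0116) and *NGFR*, the low-affinity neurotrophin receptor, from 5.94 ± 0.897 to 2.50 ± 1.69 CPM (0.0308). The size of the *NGFR* change depended on the knockdown library, at -0.68 without USP47 shRNA replicate 1 and -2.19 without replicate 2 on the log2 scale, against -1.34 with both. *SOX10*, the Schwann cell lineage factor, was counted 43 to 48 times with control shRNA and 26 to 50 times with USP47 shRNA (edgeR adjusted p = 0.599). The myelin enzyme gene *CNP*, which other cells also express, was counted 1092 and 1393 times with control shRNA and did not pass the test (log2 fold change -0.34, edgeR adjusted p = 0.0977), nor did *MBP*, counted 40 to 70 times (0.68, 0.0725), or *PRX*, counted 49 to 65 times (-0.10, 0.791).

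Of 6 other genes named growth arrest-specific, 5 were tested and 1 rose, beside 6.52% of all genes called higher. *GAS7*, a gene of an adaptor protein first found in growth-arrested cells, was at 9.02 and 8.46 CPM with control shRNA and 25.2 and 29.7 CPM with USP47 shRNA, a rise of 1.65 ± 0.15 on the log2 scale (standard error; edgeR adjusted p = 0.00047). *GAS1* (0.50, edgeR adjusted p = 0.11), *GAS6* (-0.53, 0.0835), *GAS5* (-0.02, 0.938) and *GAS8* (-0.09, 0.697) did not pass, and *GAS2* had too few counts.

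Around the members, 29 tested genes had an annotated span within 250 kb, of which 3 rose and 3 fell, beside 16.1% of all genes called, 6.52% higher and 9.56% lower. A count of 6 in 29 is near that background and is no result about the neighbourhoods. None of the 6 tested neighbours of *EMP1* and none of the 3 of *PMP22* passed the threshold, and the nearest to *EMP1*, *FAM234B* at 54.2 kb, had a log2 fold change of 0.34 (edgeR adjusted p = 0.149). Near *EMP2*, 2 of 4 rose: *NUBP1* (0.54, edgeR adjusted p = 0.0428) at 163 kb and *TVP23A* (1.24, 0.0348) at 180 kb, genes that overlap each other on opposite strands. Near *EMP3*, 4 of 16 passed. *TMEM143*, 1.8 kb away, rose (0.55, edgeR adjusted p = 0.0452). *GRIN2D*, an NMDA receptor subunit, at 63.1 kb, *LMTK3*, a kinase gene, at 155 kb and *SULT2B1*, a sterol sulfotransferase, at 222 kb fell by 0.90, 1.11 and 1.05 on the log2 scale (edgeR adjusted p = 0.0128, 0.00398 and 0.0327). All 6 kept their sign without each library in turn. The log2 fold changes were then 0.43 to 0.65 for *NUBP1*, 0.92 to 1.70 for *TVP23A* and 0.45 to 0.67 for *TMEM143*. Those of *GRIN2D* were -0.94 to -0.85, of *LMTK3* -1.28 to -0.92 and of *SULT2B1* -1.18 to -0.89. The calls of *NUBP1*, *TVP23A* and *TMEM143* were lost with library size alone, without a filter on low counts and in the DESeq2 Wald test. That of *SULT2B1* was lost in the DESeq2 Wald test.

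The genes whose profile over the 4 libraries was most like that of a member were found by the Euclidean distance between centred log2 CPM profiles, among 14429 genes with a symbol and sufficient level, as a description. For *EMP1* these were *SPATA18* (distance 0.0268), *DMKN* (0.0876) and *SLFN5* (0.0892). *SPATA18* was at 3.48 and 3.47 CPM with control shRNA and 0.817 and 0.766 CPM with USP47 shRNA, and *SLFN5* at 30.5 and 28.6 and then 8.13 and 7.25 CPM. Those 3 genes, like *EMP1*, were at about the same level in both knockdown libraries. For *EMP2* they were *GSN* (0.0223), encoding the actin-severing protein gelsolin, *GAS6* (0.0257), a ligand of TAM receptors, and *CRAT* (0.0372), carnitine acetyltransferase. *GSN* retained 55.8% and 83.5% of its control mean, side by side with 57.0% and 83.5% for *EMP2*. For *EMP3* they were *RUFY4* (0.0468), *SNORA74A* (0.0474) and *CABLES1* (0.0686), which overlapped between groups. For *PMP22* they were *ERVMER34-1* (0.0201), *TRIM16L* (0.0328) and *IFNGR2* (0.0349), an interferon gamma receptor chain at 29.7 and 32.9 CPM with control shRNA and 23.3 and 24.9 CPM with USP47 shRNA. With 4 libraries many genes share a profile, and nothing on function or control is read from the likeness.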

How the data were processed

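The RNA-Seq libraries of HGC-27 cells numbered 4, with 2 in each labelled group. Unnormalized counts of reads per gene were deposited by the authors together with TPM and FPKM values derived from them. The deposited TPM values were used for levels between genes and the deposited FPKM values were not used. According to the methods and the submitters' processing notes, reads were quality trimmed and mapped to hg19 with STAR 2.7.5c, and duplicates and low-quality reads were removed with SAMtools 1.9. Duplicate removal without molecular identifiers lowers high counts most. featureCounts is named without a version, and the annotation and strand setting of the counting are not given in the sources used here. The kit in the labels is stranded and differs from the kit in the methods.

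The counts as deposited (15649899 to 20140273 per library) were fitted with edgeR 4.0.16 in R 4.3.3 (TMM, filterByExpr, 2-sided robust quasi-likelihood test, Benjamini-Hochberg adjustment over 21932 genes, threshold 0.05). Standard errors were derived from the fold change and the root of the F statistic. On simulated counts for this comparison over 21932 genes with 200 changed, 82% of changes of 1 and 99% of changes of 2 on the log2 scale were recovered. The simulation gave every gene the same dispersion (0.0118) and changed only genes above 1 CPM on average. Real replicates differed unequally, with a chi-square per degree of freedom of 4.75 for the control and 16.5 for the USP47 shRNA pair. The recovered shares therefore need not hold for the real counts. Of the identifiers, 55665 matched a symbol in GENCODE release 44 lifted to GRCh37. Members and gene lists were chosen with earlier results of these data known, and the lists hold no member. Some genes of the marker lists are not reported here. Named are the members, *USP47*, the called genes of each list (at most 10) and of the 250 kb around a member, and the 3 genes most like each member (prior count 2, average log2 CPM of at least 1). Other genes are named as examples, chosen after their values were seen. Alternatives were DESeq2 1.42.0 (size factors, Wald test), library size alone, other filters, a block for the replicate number, leaving out each library, TPM (pseudocount 0.1) and canonical exon length.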

Additional observations from a re-analysis of the deposited data

How the results depend on the processing

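With 2 libraries per group, the spread of a gene rests largely on genes of similar abundance, and fits without 1 library assume that the lone library of a group varies like the other group. The direction of *EMP1*, *EMP2* and *PMP22* held in every fit. Leaving out 1 library gave log2 fold changes of -2.07 to -1.97 for *EMP1*, -0.81 to -0.25 for *EMP2*, -0.22 to 0.51 for *EMP3* and -0.49 to -0.31 for *PMP22*. With library size alone *EMP1* was at -2.08 and 3 members were called, all lower, beside 2800 of the 21932 genes. Nothing is read from that count, since the members were chosen with this comparison known. In that fit the median of all genes was -0.0722, the share of higher calls was 31.5% against 40.5%, and 3 genes near a member were called. Without a library, 1230 to 7270 genes in all were called, 2 to 6 relatives, 1 to 4 claudins, 1 to 6 partners, 2 to 3 myelin genes, 1 to 2 growth arrest genes and 1 to 9 genes near a member. Claudins called were 2 under a filter that required 10 or more counts per library and 1 by the DESeq2 Wald test, which called 3 genes near a member, as did the fit without a filter.

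The replicate numbers are shared by the groups, but no source says that they mark a shared batch. Each group has only 2 libraries, whose deviations correlated at 0.213 between groups. Whether libraries of the same number share a batch was not tested. With the replicate number as a block, 7422 of the 21932 genes were called. Among them were 7 of 13 partners, 4 of 7 myelin genes, 3 of 5 growth arrest genes, 11 of 29 genes near a member and 3 of 4 members. Calls thus rose over all genes. Nothing is read from these counts, since the members and lists were chosen with earlier results known. Without USP47 shRNA replicate 2 the genes most like *EMP3* changed sign, as *EMP3* did. They were picked for a profile like that of *EMP3* in these libraries, so this follows from the choice and is no separate observation. Leaving out 1 library gave -0.20 to 0.58 for *RUFY4*, -0.20 to 0.46 for *SNORA74A* and -0.14 to 0.51 for *CABLES1*. The causes were not tested. With levels per canonical exon length, an alternative chosen after seeing the data, the order of the members held, at 65.6% *EMP3*, 19.9% *PMP22*, 12.1% *EMP2* and 2.44% *EMP1* of the control sum. Low counts limit *CLDN1*, *CLDN5*, *EPCAM* and *P2RX7*.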
